A study of Mus musculus with 71 samples.

Results

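Wnt pathway genes were examined in mouse embryonic stem cells (mESCs) with and without part of their linker histone H1. The set holds 49 genes out of 34010 RefSeq accessions in the expression tables: 18 Wnt ligands, 1 gene of ligand secretion, 12 receptors and co-receptors, 4 core intracellular components, 4 TCF/LEF factors, 3 secreted inhibitors, and 7 feedback genes and targets. It was chosen from pathway knowledge around Sp5, a transcription factor gene whose lower level in H1-TKO mESCs was already known from these libraries. Sp5 is therefore described without a test, and the question asked of the other genes was whether they shared its fall. Wild type (WT) R1 mESCs were compared with H1-TKO mESCs, in which the H1c, H1d and H1e genes had been targeted in R1 cells by CRISPR/Cas9 with 1 guide to a stretch that the 3 genes share. Both lines were grown with LIF and serum, and how many clones the H1-TKO line stands for was not given in the sources used here. Poly(A) RNA-seq had 2 libraries per genotype, and H3K27me3 ChIP-seq was read from the peak list of replicate 1 of each genotype. The second ChIP-seq replicate of each genotype was not analysed here. H3K27me3, the mark laid down by Polycomb repressive complex 2, is found on many silent developmental genes.

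The genotypes of the RNA-seq libraries need a caution. The headers and names of the expression tables give the genotypes opposite to the sample labels, and the names of the tables were used here. Each library equalled the same-named genotype's column of the study's source data in 100% of the 1999 rows read, within a tolerance of 0.001. Under the sample labels each direction of expression given here would turn round. The targeted genes themselves were little detected in poly(A) RNA. The normalized count (reads divided by a size factor of the library) of H1f2, the symbol of H1c, was 11.6 and 56.7 in WT and 18.7 and 7.37 in H1-TKO. H1f3 (H1d) stood at 3.88 and 41.4 in WT and at 1.10 and 0 in H1-TKO. H1f4 (H1e) stood at 5.43 and 19.6 in WT and at 0 and 2.11 in H1-TKO. H1f2 thus overlapped between the genotypes, while H1f3 and H1f4 were lower in both H1-TKO libraries. The libraries held 6951619 to 10538507 reads. WT replicate 2 stood apart, with 11.8% of its reads in a single ribosomal RNA accession against 1.98% to 2.08% in the others, and 13.3% of the accessions tested differed at least 2-fold between the WT libraries, against 6.52% between the H1-TKO libraries. The growth protocol attached to these libraries describes another cell line, yet 5 of 7 stem cell markers (Pou5f1, Sox2, Zfp42, Klf4 and Dppa5a) stood at 673 or more in all 4 libraries. The other 2, Nanog with 4 accessions and Esrrb with 2, stood at 0 and at 0 to 3.27.

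Wnt proteins are secreted lipid-modified ligands that bind Frizzled receptors together with the co-receptors Lrp5 and Lrp6. In their absence a complex built on Axin and Apc, with the kinase Gsk3b, marks β-catenin (Ctnnb1) for destruction. With a ligand bound, β-catenin accumulates and acts in the nucleus through TCF/LEF factors. Several of the genes it switches on feed back on the pathway, and in mESCs the pathway helps to sustain the naive state. Sp5 is one of the most direct of these targets in mouse embryos and mESCs, and its protein binds GC-rich sites.

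The promoters of 3 direct targets are shown to compare them for the letters through which TCF/LEF factors are known to act. Each run is the 250 bases before a transcription start from the RefSeq promoter table of GRCm38.p6, and capitals mark CTTTGAT or CTTTGTT on either strand. Sp5 (chr2:70474673-70474922, plus strand) held 2 matches, Dkk1 (chr19:30549497-30549746, minus strand) held 1 and Axin2 (chr11:108920099-108920348, plus strand) held 0.
Sp5: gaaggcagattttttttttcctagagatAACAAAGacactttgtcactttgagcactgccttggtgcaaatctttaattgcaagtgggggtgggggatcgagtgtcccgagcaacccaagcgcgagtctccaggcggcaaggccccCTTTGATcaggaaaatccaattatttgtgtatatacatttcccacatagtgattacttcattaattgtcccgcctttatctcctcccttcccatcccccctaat
Dkk1: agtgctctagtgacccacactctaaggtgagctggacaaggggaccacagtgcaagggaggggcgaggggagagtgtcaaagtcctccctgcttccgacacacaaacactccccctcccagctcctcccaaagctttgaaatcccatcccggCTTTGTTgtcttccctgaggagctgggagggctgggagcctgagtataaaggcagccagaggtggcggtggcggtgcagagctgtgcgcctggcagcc
Axin2: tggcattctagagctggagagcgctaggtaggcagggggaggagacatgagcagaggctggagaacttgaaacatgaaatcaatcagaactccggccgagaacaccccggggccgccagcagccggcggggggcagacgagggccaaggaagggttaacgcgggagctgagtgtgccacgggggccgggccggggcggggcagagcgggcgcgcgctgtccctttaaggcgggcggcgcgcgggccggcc
Among the 45 promoters listed for 33 of the 49 members, 13.3% held either motif, against 8.06% of all 32851 promoters in the table. CTTTGAT alone stood in 6.67% of the members' promoters and in 3.21% of all. The members with a match were Sp5, Dkk1, Fzd7, Tcf7l2, Wnt5b and Wnt11. A match is a description of letters and not a binding site.

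The promoters of the ligand genes Wnt3 and Wnt6 are shown because these are the ligand genes that passed the test, in opposite directions. Here capitals mark the GC box GGGCGG on either strand, the kind of sequence that Sp factors bind. Wnt3 (chr11:103773925-103774174, plus strand) held 2 matches and Wnt6 (chr1:74771642-74771891, plus strand) held 6.
Wnt3: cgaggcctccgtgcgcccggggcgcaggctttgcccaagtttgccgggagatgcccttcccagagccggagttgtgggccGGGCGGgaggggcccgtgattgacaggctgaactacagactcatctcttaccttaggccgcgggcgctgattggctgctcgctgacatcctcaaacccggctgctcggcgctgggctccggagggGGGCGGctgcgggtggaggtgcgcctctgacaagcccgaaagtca
Wnt6: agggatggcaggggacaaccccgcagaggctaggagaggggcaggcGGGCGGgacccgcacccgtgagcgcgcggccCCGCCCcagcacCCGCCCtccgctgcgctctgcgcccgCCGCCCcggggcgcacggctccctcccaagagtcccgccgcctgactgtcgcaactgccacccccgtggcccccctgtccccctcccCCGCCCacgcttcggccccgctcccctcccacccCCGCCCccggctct
A GC box stood in 64.4% of the members' promoters and in 32.7% of all promoters. The members' promoters were also richer in CpG, with a median of 20 CpG in 250 bases (quartiles 8 and 34) against 6 (quartiles 2 and 16) in all. The Sp5 promoter, with 6 CpG, 46.0% G and C and no GC box, lay under the members' median and at the median CpG number of all promoters.

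Sp5 stood at a normalized count of 34.9 and 55.6 in the WT libraries and of 6.61 and 10.5 in the H1-TKO libraries. Both H1-TKO libraries lay below both WT libraries, and the mean in H1-TKO was 0.189 times that in WT. On the scale of log2(normalized count + 1), the difference of H1-TKO minus WT was −2.27 ± 0.56 (SE, 2 libraries each). Per kb of exon its level was 21.6 in WT and 4.08 in H1-TKO. These values chose the gene set and are given as a description. In bulk RNA, fewer cells of a type and less RNA per cell cannot be told apart.

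Some direct targets among the members were lower in both H1-TKO libraries as Sp5 was, and none of those tested fell past the threshold. Of the 9 other direct targets, 4 had a mean normalized count of at least 10 and could be tested by limma across all accessions. With a threshold of 0.05 on the adjusted p, 1 of these rose and 0 fell. Over all 11113 accessions tested 9.84% were called higher and 10.7% lower, so that few calls could come from 4 genes and a count of 0 does not set them apart. The same threshold on the unadjusted p took in 2 lower genes (Axin2 and Znrf3), edgeR called 0 lower, and DESeq2 called 1 lower (Axin2). Outside the members, of genes that respond to Wnt signals, Notum and Ccnd1 fell and Tfcp2l1 rose past the threshold, as given below.

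Axin2, the scaffold of the destruction complex and the most widely used reporter of Wnt activity, stood at 174 and 338 in WT and at 132 and 126 in H1-TKO. Both H1-TKO libraries were below both WT libraries, by less than the WT libraries differed from each other. Its log2 difference was −0.90 ± 0.33 (SE, limma adjusted p = 0.0933). In fits that left out a library, the genotype with 1 library left is assumed to vary like the other. The p-values of such fits given below are therefore a description. Without WT replicate 1 the difference of Axin2 was −1.38 and without WT replicate 2 it was −0.42. DESeq2 on the recovered reads of all libraries gave Axin2 an adjusted p of 0.0423. The median accession on its chromosome, 11, was itself lower by 0.37 on the log2 scale, and with chromosome medians subtracted the difference of Axin2 was −0.53 (limma adjusted p = 0.191).

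Znrf3, a membrane ubiquitin ligase that removes Frizzled receptors, stood at 96.2 and 139 in WT and at 54.0 and 77.9 in H1-TKO. The groups did not overlap, and the log2 difference was −0.82 ± 0.34 (limma adjusted p = 0.126). Without WT replicate 1 it was −1.08 and without WT replicate 2 it was −0.56. With the median of its chromosome, 11, subtracted it was −0.45 (limma adjusted p = 0.327). Rnf43, which acts like Znrf3, stood at 24.8 and 6.54 in WT and at 13.2 and 31.6 in H1-TKO. Its WT libraries lay on either side of an H1-TKO library, so no direction can be read (log2 difference 0.63 ± 0.78, limma adjusted p = 0.592).

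Tcf7 rose. This gene encodes TCF1, a TCF/LEF factor that is itself induced by Wnt signals. It stood at 1277 and 1272 in WT and at 2626 and 2710 in H1-TKO. Among the members with 1 accession, Tcf7 had the highest level per kb of exon (457 in WT and 956 in H1-TKO). Its log2 difference was 1.065 ± 0.12 (limma adjusted p = 0.00354), in the opposite direction to the median of chromosome 11, on which it lies. The adjusted p was at most 0.0321 in each of the 16 alternatives run, those that left out a library included.

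The 5 direct targets under the filter were close to the detection limit. Sp8, a relative of Sp5, stood at 3.88 and 1.09 in WT and at 0 in both H1-TKO libraries. Dkk1, a secreted antagonist of Lrp5 and Lrp6, stood at 3.10 and 3.27 in WT and at 0 in both H1-TKO libraries. Lgr5, a receptor for R-spondins, stood at 5.43 and 3.27 in WT and at 1.10 and 1.05 in H1-TKO. Sp8, Dkk1 and Lgr5 each lay lower in both H1-TKO libraries, at a depth of a few reads that allows no fold to be given. Nkd1, an inhibitor that binds Dishevelled, overlapped, with 8.53 and 10.9 in WT and 2.2 and 12.6 in H1-TKO. Lef1 was listed at 0 in each library for each of its 3 accessions. Of the 14 members with several RefSeq accessions, 12 had a mean under 10, and the stem cell gene Nanog, with 4 accessions, was also listed at 0, so a value of 0 for such a gene does not show absence.

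**Figure D1:**
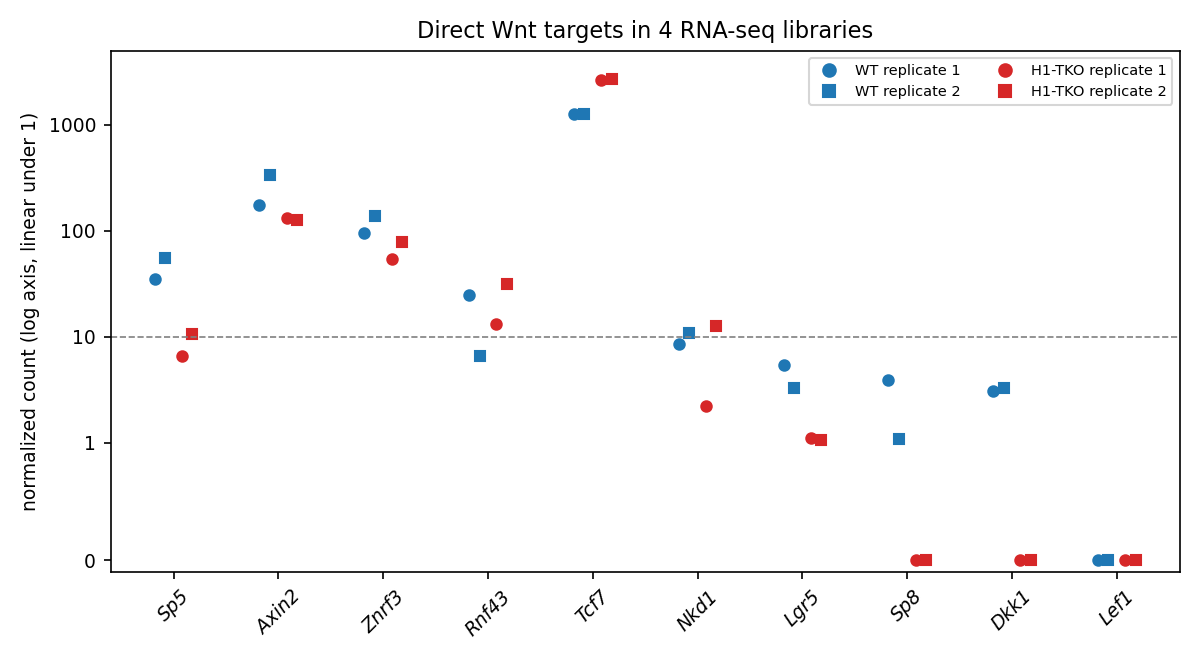
Normalized count of the 10 direct Wnt targets (vertical log axis, linear under 1) in the 4 RNA-seq libraries, with WT in blue, H1-TKO in red, circles for replicate 1 and squares for replicate 2. The dashed line marks the minimum mean of 10. Sp5, Axin2 and Znrf3 lie lower in both H1-TKO libraries, Tcf7 lies higher in both, and Rnf43 and Nkd1 overlap.

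Over the whole set, 27 of the 49 members passed the filter on a mean normalized count of 10. Of the 26 that remain without Sp5, 3 rose (Wnt6, Tcf7 and Sfrp1) and 3 fell (Wnt3, Fzd2 and Fzd8). These are 11.5% each way, near the shares over all accessions, 9.84% higher and 10.7% lower. Both H1-TKO libraries lay below both WT libraries in 10 of the 26 (38.5%) and above them in 4 (15.4%), against 34.2% below and 32.2% above over all accessions. The median log2 difference of the 26 was −0.28, against −0.03 over all accessions. Wnt3, Fzd1 and Sp5 passed through their WT level alone, since their H1-TKO means were under 10, so the counts over members past the filter are a description. Of the 22 members under the filter, 12 had several accessions, and the highest mean was 8.57.

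Among the ligands, 1 rose and 1 fell of the 7 that passed, which is near the shares of 9.84% and 10.7% of all accessions. Wnt3, a canonical ligand needed for gastrulation, stood at 37.2 and 48.0 in WT and at 3.31 and 6.32 in H1-TKO. Both H1-TKO values lay far below both WT values. It passed the filter through its WT level alone, so that the call is a description. Its log2 difference was −2.95 ± 0.61 (limma adjusted p = 0.0178), which was −2.58 (limma adjusted p = 0.0229) with the median of its chromosome, 11, subtracted. Without H1-TKO replicate 1 the adjusted p was 0.0694.

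Wnt6, a ligand of epithelial tissues and of early extraembryonic endoderm, moved the other way. It stood at 16.3 and 24.0 in WT and at 115 and 99.0 in H1-TKO, a mean 5.30 times that of WT and the highest mean of any ligand. The log2 difference was 2.37 ± 0.39 (limma adjusted p = 0.00965). The median accession on chromosome 1, where Wnt6 lies, was higher by 0.49 in H1-TKO, and with chromosome medians subtracted the difference was 1.85 (limma adjusted p = 0.0264). Without H1-TKO replicate 1 the adjusted p was 0.0723. Its neighbour Wnt10a stood at 3.88 and 3.27 in WT and at 4.41 and 17.9 in H1-TKO, under the filter.

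The 5 other ligands past the filter had overlapping groups, with log2 differences from −0.54 to 0.35. Wnt4 shows how far the WT libraries could part, at 86.9 and 7.64 against 25.3 and 12.6 in H1-TKO. Its log2 difference was −2.21 without WT replicate 2 (limma adjusted p = 0.000281) and 1.13 without WT replicate 1 (0.233), so its direction rests on which WT library is used. The log2 differences of the other 4 also changed sign with a WT library left out. The 11 ligands under the filter included Wnt1, listed at 0 throughout, and Wnt3a, at 3.88 and 8.73 in WT and 8.81 and 2.11 in H1-TKO. Porcn, the acyltransferase that Wnt proteins need for secretion, stood at 6.98 and 12 in WT and at 4.41 and 0 in H1-TKO for the highest of its 6 accessions, also under the filter.

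Of the 10 receptors and co-receptors that passed, 7 had both H1-TKO libraries below both WT libraries, against 34.2% over all accessions. Past the test 2 fell (Fzd2 and Fzd8), where 10.7% of all accessions were called lower, and 0 rose at an adjusted p under 0.05 by limma, by edgeR and by DESeq2 or at an unadjusted p under 0.05. Fzd2 stood at 335 and 204 in WT and at 67.2 and 54.8 in H1-TKO, a mean 0.226 times that of WT. Its log2 difference was −2.09 ± 0.32 (limma adjusted p = 0.00755), and −1.72 with the median of chromosome 11 subtracted (limma adjusted p = 0.0188). The call stood with each library left out in turn. Fzd8 stood at 44.2 and 56.7 in WT and at 12.1 and 14.7 in H1-TKO, a log2 difference of −1.83 ± 0.47 (limma adjusted p = 0.0340). Its adjusted p was 0.188 without H1-TKO replicate 1 and 0.133 without H1-TKO replicate 2.

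Fzd1, Fzd3 and Fzd4 were lower in both H1-TKO libraries and missed the threshold in limma, while DESeq2 called Fzd1 lower (adjusted p = 0.0480). Fzd1 stood at 41.1 and 16.4 in WT and at 6.61 and 0 in H1-TKO (limma adjusted p = 0.0730), and as it passed the filter through its WT level alone its p-values and its place among the 7 receptors are a description. Fzd4, the receptor for Norrin in the eye, stood at 55.1 and 33.8 in WT and at 15.4 and 12.6 in H1-TKO (limma adjusted p = 0.0646). For Fzd3, with 335 and 212 in WT and 133 and 174 in H1-TKO, the limma adjusted p was 0.0869. Without WT replicate 2 the log2 differences were −3.93 (Fzd1), −1.91 (Fzd4) and −1.13 (Fzd3). Without WT replicate 1 they were −2.65 (Fzd1), −1.22 (Fzd4) and −0.47 (Fzd3).

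Fzd5 and Fzd6, with 2 accessions each, were listed at 0 in each library, which does not give their level. Fzd7, the highest of the other Frizzleds, did not follow Fzd2. It stood at 1706 and 1016 in WT and at 1643 and 1635 in H1-TKO, so that the H1-TKO values lay between those of WT (log2 difference 0.32 ± 0.23, limma adjusted p = 0.356). Without WT replicate 1 its difference was 0.69, without WT replicate 2 it was −0.06, and with the median of chromosome 1 subtracted it was −0.20. Per kb of exon Fzd7 stood at 283 in WT and 341 in H1-TKO, while Fzd2 stood at 74.3 and 16.8. Fzd9 and Fzd10 had log2 differences of 0.23 and 0.44, and neither passed. The difference of Fzd10 was 1.13 without WT replicate 2 (limma adjusted p = 0.00201) and −0.25 without WT replicate 1 (0.472). The co-receptors Lrp5 and Lrp6 were lower in both H1-TKO libraries, by 0.48 and 0.32 on the log2 scale, with limma adjusted p-values of 0.134 and 0.165. Without WT replicate 2 these differences were −0.76 and −0.46, and without WT replicate 1 they were −0.20 and −0.18.

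Of the 3 core components past the filter, 0 were called by limma, edgeR or DESeq2, and 0 had an unadjusted p under 0.05. Apc, the tumour suppressor of the destruction complex, stood at 3018 and 2340 in WT and at 2323 and 2483 in H1-TKO, with a log2 difference of −0.15 ± 0.15 (limma adjusted p = 0.517). The difference was −0.33 without WT replicate 2 (limma adjusted p = 0.000224) and 0.04 without WT replicate 1 (0.734). Gsk3b stood at 984 and 816 in WT and at 876 and 970 in H1-TKO, and its log2 difference was 0.04 ± 0.16 (limma adjusted p = 0.871), which changed sign to −0.09 without WT replicate 2. Ctnnb1 has several accessions and stood at 9.92 to 21.8, which does not give its level. Axin1, Tcf7l1 and Tcf7l2 also have several accessions and stood under the filter.

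Of the secreted inhibitors, Sfrp1 rose. The Sfrp proteins bind Wnt ligands outside the cell. Sfrp1 stood at 411 and 256 in WT and at 751 and 754 in H1-TKO, a log2 difference of 1.21 ± 0.24 (limma adjusted p = 0.0153), in the opposite direction to the median of chromosome 8 (−0.24). Leaving out H1-TKO replicate 1 or 2 gave adjusted p-values of 0.0574 and 0.0585. Its relative Sfrp2 stood at 213 and 123 in WT and at 171 and 143 in H1-TKO, with a log2 difference of −0.05 ± 0.31. Its direction rests on which WT library is used, with 0.34 without WT replicate 1 (limma adjusted p = 0.271) and −0.45 without WT replicate 2 (0.116).

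**Figure D2:**
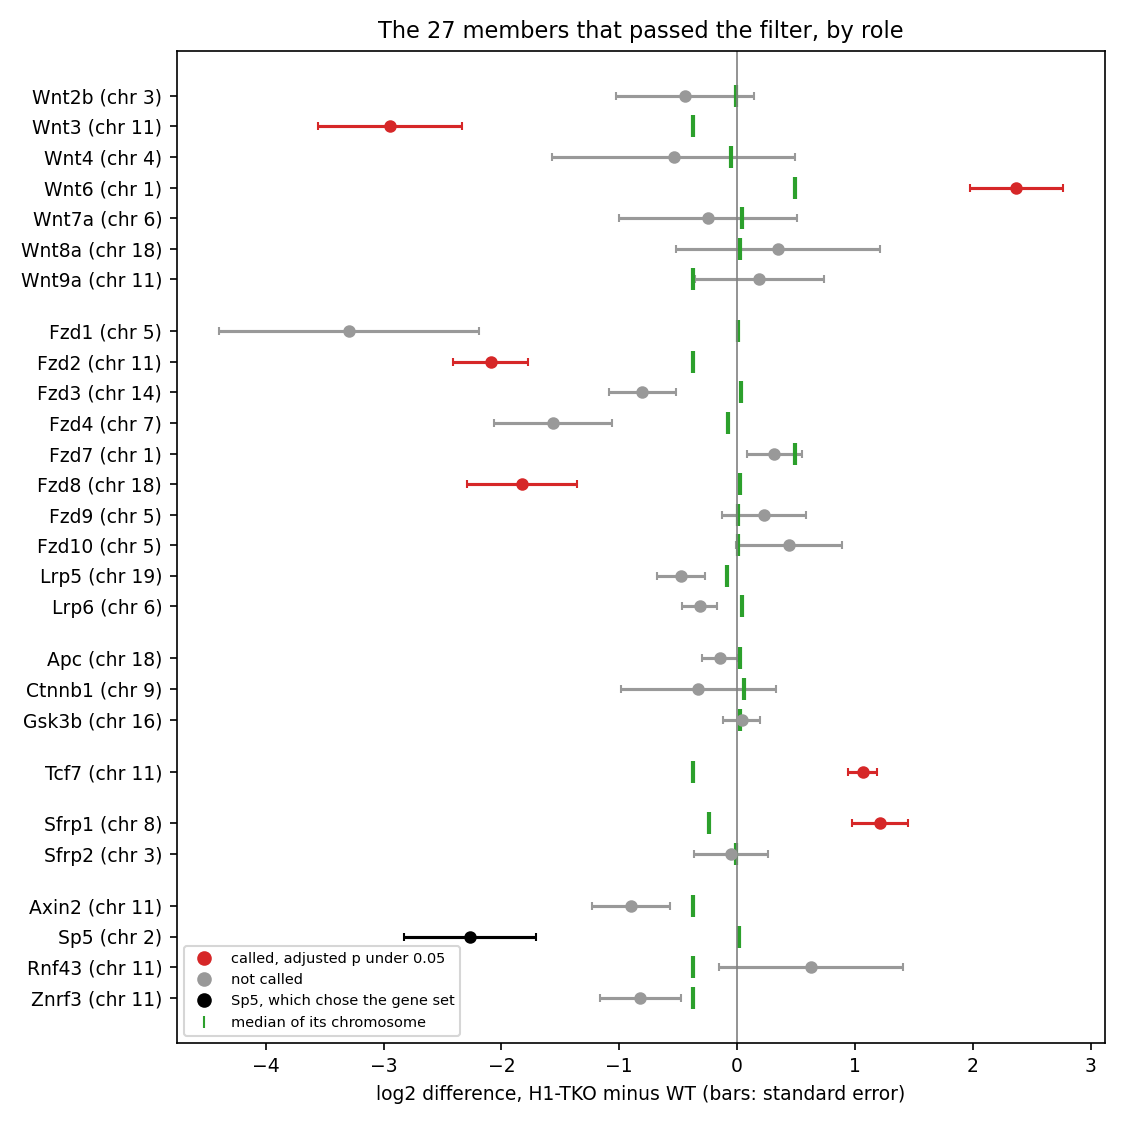
Log2 difference of H1-TKO minus WT (horizontal axis, log2(normalized count + 1), bars for the standard error, 2 libraries per genotype) for the 27 members past the filter, ordered by role from ligands at the top to targets at the bottom. Red marks a limma adjusted p under 0.05, grey none, black Sp5, and a green tick the median of the member's chromosome. Wnt6, Tcf7 and Sfrp1 lie to the right and Wnt3, Fzd2 and Fzd8 to the left.

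Of the 6 members called besides Sp5, 5 lay on chromosomes 1, 8 and 11, as did 38.5% of the 26 members past the filter, 19.6% of all accessions tested and 26.1% of all accessions called. These are the chromosomes whose medians stood furthest from 0 among the chromosomes that hold members. Chromosome Y holds no member, and its 5 accessions tested had a median log2 difference of −5.61, the furthest from 0 of any chromosome. Of the 9 members on chromosome 11, 7 passed the filter, and of these Tcf7 rose and Wnt3 and Fzd2 fell. With the accessions of chromosomes 1, 8, 11 and Y left out of the fit, limma called 1 member lower, Fzd8, with Sp5 set aside. In that limma fit Fzd1, Fzd3, Fzd4 and Lrp5 had an unadjusted p under 0.05, which Lrp5 missed in the limma fit of all accessions. On the same members, in their fits of all accessions, edgeR called Fzd8 and DESeq2 called Fzd8 and Fzd1. None (0) rose by these tools or at an unadjusted p under 0.05. The part of these chromosome-wide differences in the members' values was not tested beyond the subtraction given above. Called members kept their direction after it.

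Other genes of the pathway, from a list of 42 components, were examined in the same fit. Of the 29 that passed the filter, 4 rose and 5 fell, beside 9.84% and 10.7% of all accessions, and their median log2 difference was −0.09. Notum, a secreted enzyme that inactivates Wnt proteins and a known Wnt target, stood at 159 and 716 in WT and at 55.1 and 31.6 in H1-TKO. It was lower in both H1-TKO libraries with WT libraries far apart, and its log2 difference was −2.99 ± 0.65 (limma adjusted p = 0.0213), ranging from −4.07 to −1.90 with a library left out. Tnks, which marks Axin for destruction, fell by 1.20 on the log2 scale (limma adjusted p = 0.00324). Dvl2, which carries the signal from Frizzled to Axin, fell by 0.73 (limma adjusted p = 0.0226), and by 0.36 with the median of chromosome 11 subtracted (limma adjusted p = 0.0800). The R-spondin receptor Lgr4 fell by 0.50 (limma adjusted p = 0.0368), and the R-spondin Rspo1 fell by 1.84 (limma adjusted p = 0.0490), a call that DESeq2 did not make (adjusted p = 0.0673).

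In the same list Rspo4, another R-spondin, stood at 4.65 and 3.27 in WT and at 46.3 and 48.4 in H1-TKO, a log2 difference of 3.30 (limma adjusted p = 0.0111). It passed the filter through its H1-TKO level alone, so its call is a description. Ror2, a receptor of non-canonical signalling, rose by 1.58 (limma adjusted p = 0.00680), Dkk3 by 1.36 (limma adjusted p = 0.0266) and Bcl9l, a β-catenin co-factor, by 0.75 (limma adjusted p = 0.0404). Of 17 further Wnt-responsive genes, 9 passed the filter, 1 rose and 1 fell. Their median log2 difference was 0.49, and both H1-TKO libraries lay above both WT libraries in 5 of the 9 and below them in 1, beside 32.2% and 34.2% of all accessions. Mixl1, among the 5, passed the filter through its H1-TKO level alone (mean 8.70 in WT and 12.4 in H1-TKO). The counts and the median are therefore a description. The difference of Mixl1 was itself that median, and it was −0.03 with the median of chromosome 1 subtracted. Cdx1, a homeobox gene induced by Wnt signals, stood at 9.31 and 14.2 in WT and at 33.1 and 59.0 in H1-TKO, a log2 difference of 1.85 (adjusted p = 0.0506 by limma, 0.0485 by edgeR and 0.0465 by DESeq2). With a library left out its log2 difference ranged from 1.44 to 2.26. Klf2, a naive pluripotency factor, had a log2 difference of 0.80 (adjusted p = 0.0529 by limma, 0.0613 by edgeR and 0.0111 by DESeq2), and of 1.04 with the chromosome median subtracted (limma adjusted p = 0.0191). Without WT replicate 1 the difference of Klf2 was 0.40 and without WT replicate 2 it was 1.20. Ccnd1, the gene of cyclin D1, stood at 1989 and 2267 in WT and at 931 and 890.0 in H1-TKO, and fell by 1.22 on the log2 scale (limma adjusted p = 0.00343). Tfcp2l1, a naive pluripotency factor on chromosome 1, rose by 0.97 (limma adjusted p = 0.00418), and by 0.45 with the chromosome median subtracted (limma adjusted p = 0.0236). Of these 11 calls, Tnks, Notum, Ccnd1 and Tfcp2l1 stood with each library left out. Without H1-TKO replicate 1 the calls of Dvl2, Bcl9l, Ror2, Lgr4, Rspo1, Rspo4 and Dkk3 were lost, without H1-TKO replicate 2 those of the same genes but Ror2, and without WT replicate 1 that of Rspo1.

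Of the 3 other Sp factors tested, 0 were called by limma, edgeR or DESeq2, and 1 (Sp1) had an unadjusted p under 0.05. Sp1 stood at 4149 in each WT library and at 3497 and 3359 in H1-TKO (log2 difference −0.28, limma adjusted p = 0.116). Sp3 and Sp6 had log2 differences of 0.18 and −0.37, and Sp2, Sp4 and Sp7 were under the filter.

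Markers of other cell types were read beside these values. Of 4 neural markers 2 fell, Nes and Tubb3, and their summed level was 2297 to 3850 in WT and 813 to 879 in H1-TKO. Of 5 fibroblast or feeder markers Col1a1 fell and Thy1 rose, the sum was 299 to 354 in WT and 507 to 576 in H1-TKO, and Postn was at 0. Of 5 mesoderm markers 2 passed the filter (T and Mixl1) and of 4 endoderm markers 1 did (Gata4). Of these, 0 were called by limma, edgeR or DESeq2 and 0 had an unadjusted p under 0.05, and the markers under the filter were not tested. The sums over all markers were 23.3 to 45.3 for mesoderm and 14.3 to 37.2 for endoderm, and Eomes, Sox17 and Foxa2 were at 0. Of 4 trophoblast markers Tfap2c rose (limma adjusted p = 0.0497), with sums of 62.2 to 88.5. Gata3, the other past the filter, went the other way without a call (limma adjusted p = 0.127). It stood at 39.6 and 33.8 in WT and at 20.9 and 8.43 in H1-TKO. Cdx2 and Elf5 were under the filter. Of 7 stem cell markers 3 rose (Sox2, Klf4 and Dppa5a), and the sum was 20124 to 29904 in WT and 37897 to 38365 in H1-TKO. The part of cells of these types in the Wnt genes' values was not tested.

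H3K27me3 peaks were common at the members. A WT peak lay on or within 2 kb of 33 of the 49 genes (67.3%, 95% Clopper-Pearson interval 52.5 to 80.1), against 16.9% of 22367 protein-coding genes. An H1-TKO peak lay there for 29 members (59.2%, interval 44.2 to 73.0), against 15.5% of genes. The intervals cover counting error only, and no replicate list was set beside either list. Peaks were listed in both genotypes for 28 members, in WT only for 5, in H1-TKO only for 1 and in neither for 15.

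Of the 18 ligand genes, all but Wnt5a and Wnt8a had a peak in both lists, and none of these peaks was shared by neighbouring ligand genes. Among genes with peaks in both lists, the top score (the p-value from MACS as −10 log10) was higher in WT for 21 of 28 members (75%) and for 58.2% of 2823 protein-coding genes. The median ratio of H1-TKO to WT top scores was 0.846 for the members and 0.918 for the genes. The highest scores were at Fzd9 (441 in WT and 245 in H1-TKO), Nkd1 (308 and 247) and Wnt6 (300 and 235). A score also depends on the depth of the ChIP library. The study's methods give nearly equal read numbers for both libraries, and the lists hold no reads, so they give no amount of the mark.

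**Figure D3:**
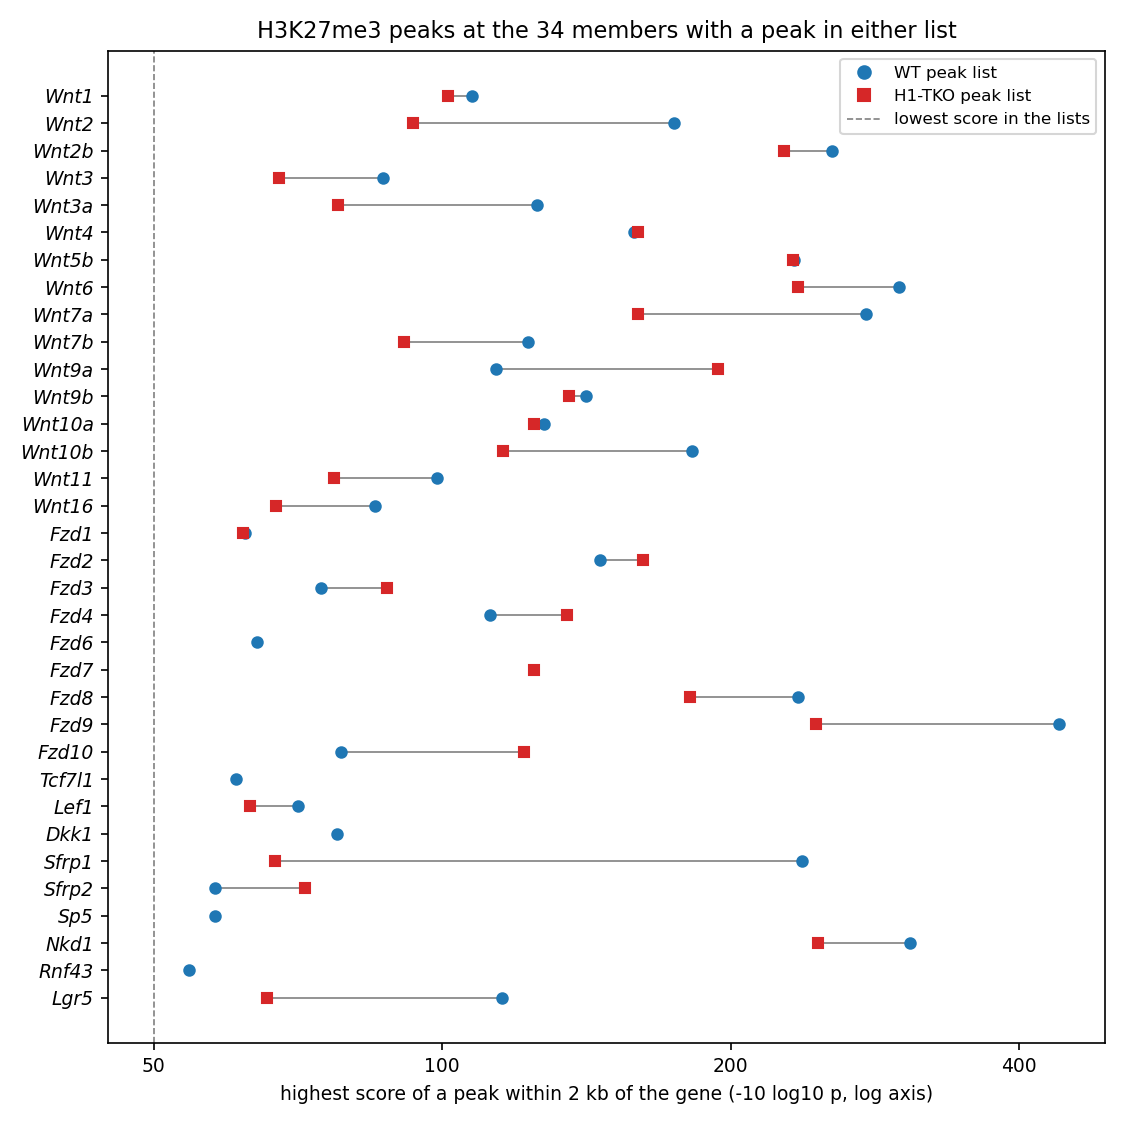
Highest score of an H3K27me3 peak on or within 2 kb of each of the 34 members with a peak in either list (horizontal log axis, −10 log10 p). Blue circles are the WT list, red squares the H1-TKO list, and the dashed line the lowest score in the lists. Sp5, Dkk1, Rnf43, Fzd6 and Tcf7l1 have a WT peak only and Fzd7 an H1-TKO peak only.

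The 5 members with a peak in WT only were Sp5, Dkk1, Rnf43, Fzd6 and Tcf7l1, a state found in 4.25% of protein-coding genes. Their top WT scores ran from 54.5 at Rnf43 to 77.6 at Dkk1, under the median of 78.8 of the whole WT list. Sp5 (NCBIM37 chr2:70312980-70315786, plus strand) had peaks at chr2:70310347-70312065 and chr2:70315586-70316464, and neither covered its start. Counted from the start, the first centred at −1774 bases with a score of 54.6, and the second at 3045 bases, just past the end of the gene, with a score of 58.0. Both scores were near the lowest in the WT list (50.01), and a list of peaks does not give the size of a difference between the genotypes. The middle 150 bases of each peak are shown with CpG in capitals, because they are the parts of the Sp5 locus that were listed in one genotype only.
Upstream peak, chr2:70311131-70311280: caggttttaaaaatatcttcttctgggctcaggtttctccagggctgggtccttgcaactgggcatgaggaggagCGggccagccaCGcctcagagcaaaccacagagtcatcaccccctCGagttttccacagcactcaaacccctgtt
Downstream peak, chr2:70315950-70316099: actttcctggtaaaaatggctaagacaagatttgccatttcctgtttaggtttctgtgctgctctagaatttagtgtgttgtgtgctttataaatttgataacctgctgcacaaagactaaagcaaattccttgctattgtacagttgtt
The upstream peak held 55 CpG in 1719 bases and the downstream peak 14 in 879 bases, and the middle of the downstream peak held none (0 CpG).

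Expression and peaks did not pair in 1 way across the members. Sp5, with WT peaks only, was lower in H1-TKO, and Rnf43, with a WT peak only, had overlapping expression. Dkk1, with 4 WT peaks and none in H1-TKO, was near the detection limit in both genotypes. Sfrp1 rose, with 1 peak in each list that scored 238 in WT, where it covered the start, and 66.9 in H1-TKO, where it began past the start. Wnt6 rose with 3 peaks in each list, of which the one over its start scored 143 in WT and 125 in H1-TKO. Tcf7 rose, and Axin2 and Znrf3 were lower without a call, with no peak in either list.

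Among the genes that fell, Wnt3 had 3 WT peaks and 2 H1-TKO peaks, and the peak nearest its start scored 80.6 in WT and 67.6 in H1-TKO. Fzd2 was the reverse, its top score being 146 in the WT list and 162 in the H1-TKO list. Fzd8 scored 235 in WT and 181 in H1-TKO. Fzd7, the only member with a peak in H1-TKO alone (score 125), stood at the normalized counts of 1643 and 1635 there that are given above. Of the 17 members past the filter with a WT peak, Sp5 included, 2 rose and 3 others than Sp5 fell. Of the 9 with no peak in either list 1 rose and 0 fell by limma and edgeR, while DESeq2 called Axin2 lower and 2 (Axin2 and Znrf3) had an unadjusted p under 0.05. Over all accessions 9.84% were called higher and 10.7% lower, and with so few members the counts by peak state say nothing particular to either group.

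**Figure D4:**
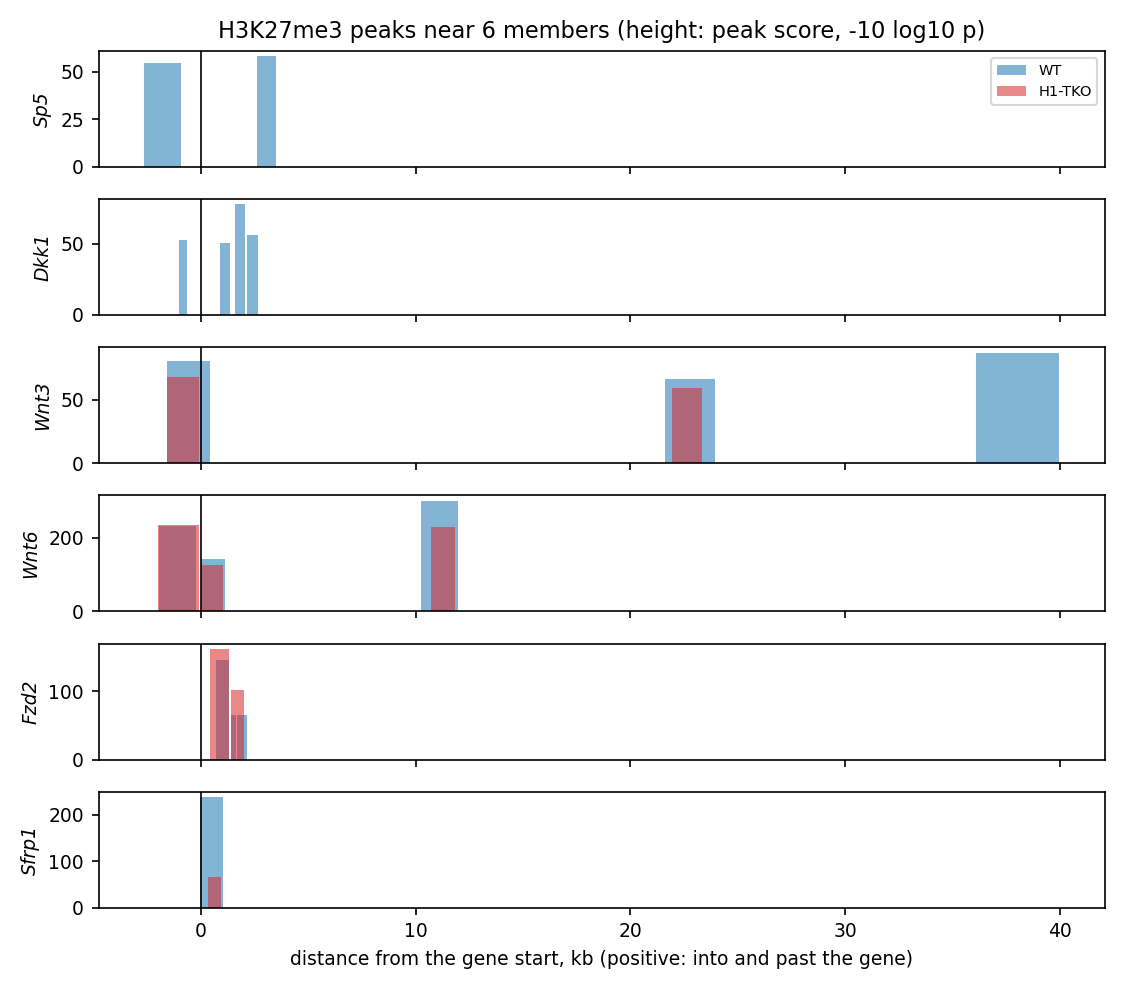
H3K27me3 peaks of 6 members by distance of the peak from the gene start (horizontal axis, kb, positive into and past the gene) and peak score (height, −10 log10 p), with the WT list in blue and the H1-TKO list in red. Sp5 and Dkk1 have blue bars only, Wnt6 has 3 peaks in both lists, and at Sfrp1 the score is 238 in WT and 66.9 in H1-TKO.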

How the data were processed

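The RNA-seq files hold, per RefSeq accession, a signal that the authors made by mapping paired-end reads with Subread to mm9 gene models, counting uniquely mapped reads with featureCounts and dividing by DESeq2 size factors. All deposited values (100%) were whole multiples of 1 read, within a tolerance of 0.02 reads. Symbols came from RefSeq (GRCm38.p6, names only), and a member with several accessions was represented by the one with the highest mean. Accessions with a mean of at least 10 were tested by limma 3.58.1 (R 4.3.3; trend, log2(normalized count + 1), Benjamini-Hochberg adjustment over 11113 accessions). edgeR 4.0.16 and DESeq2 1.42.0 on the recovered reads were alternatives. On simulated counts of this design (11113 accessions), the limma step found 189 of 200 changed genes with 15 false calls. Each changed gene was given the same size of change, larger than those of Axin2 and Znrf3, and both genotypes the same spread. Smaller changes and the wider spread between the WT libraries were not simulated, so no detection rate for them follows. The study describes its RNA-seq replicates as biological and independently performed, while the labels do not name separate cultures, and p-values measure the spread between these libraries. In fits that left out a library, p-values rest on the spread within the other genotype alone.

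The deposited peak score is −10 times the log10 of the p-value from MACS, which the authors ran after bowtie2 alignment to mm9. Peaks overlapping a GENCODE M1 gene or 2 kb on either side by at least 1 bp were kept. The members and lists were chosen with earlier results of these data known. The text names members past an adjusted p of 0.05, the direct targets, the highest member of each role, and called genes of the other lists. Exon lengths are merged GENCODE M1 exons.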

Additional observations from a re-analysis of the deposited data

How the results depend on the processing

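Of 110 counts recomputed under the alternatives, 76 stayed within 1.5 times the main count, and of 142 values of 9 single members (those called, Axin2, Rnf43 and Znrf3), 129 kept direction and call. Outside that tally, 9 other members gained a call with a library left out (Wnt4, Fzd1, Fzd3, Fzd4, Fzd7, Fzd10, Lrp5, Lrp6 and Apc), and 11 changed sign (Wnt2b, Wnt4, Wnt7a, Wnt8a, Wnt9a, Fzd7, Fzd10, Apc, Ctnnb1, Gsk3b and Sfrp2). In the main fit 1094 accessions were higher and 1188 lower, 3 members other than Sp5 were higher and 3 lower, and 5 other Wnt genes were higher and 6 lower. A filter on a mean of at least 1 gave 702 higher and 765 lower accessions and 3 higher and 3 lower other Wnt genes. No filter gave 624 and 697 accessions and 3 higher and 2 lower other Wnt genes. A filter of 50 left 1 lower member, and without chromosomes 1, 8, 11 and Y there were 0 higher members and 1 lower member and 2 lower other Wnt genes, since fewer members were tested. Leaving out a library gave 199 to 2682 higher and 386 to 2786 lower accessions, 1 to 4 higher and 2 to 10 lower members, and 1 to 15 higher and 3 to 9 lower other Wnt genes, where a lone library is assumed to vary like the other genotype. Rnf43 reversed to −0.26 without WT replicate 2. Calls of Fzd8 were lost with a filter of at least 1 (limma adjusted p = 0.0563) and with no filter (0.0685). DESeq2 called 5 members lower. A peak score of at least 100 left 20 members with a WT peak and 17 with an H1-TKO peak, by construction. Elsewhere the cause was not tested. Replicate numbers did not pair the libraries (correlation of deviations 0.011), and with the replicate block 8 members were lower, 11 other Wnt genes were higher, and Axin2 had a limma adjusted p of 0.0113. The H3K27me3 lists hold no reads, so depth at single peaks could not be checked, while the study gives nearly equal read numbers for both libraries. No paired analysis was possible because 1 list per genotype was used for peaks.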
